A study of Bubalus bubalis with 12 samples.

Results

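The genes described here encode membrane transporters that exchange sodium for protons or that carry bicarbonate, chloride and sulfate. They were chosen by name, as 9 gene symbols of the SLC9, SLC4 and SLC26 families, and 8 of the 9 were found among the 34037 genes measured. The 8 are SLC9A2, SLC9A3, SLC9A8, SLC4A2, SLC4A4, SLC4A7, SLC26A3 and SLC26A2, while SLC26A6 was not analysed here. Ruminal wall was taken at slaughter from 12 Italian Mediterranean dairy buffaloes on a total mixed ration (TMR), which was the whole diet of 6 animals (control group) and was fed to 6 others with the inclusion of green ryegrass at 30% of the diet (treated group). All were adult multiparous cows of 1 commercial herd, and both diets had been balanced for nitrogen and energy, but the treated ration also held more forage relative to concentrate. By the feed components that the paper lists, it also held less corn silage and alfalfa hay. Soybean meal, calcium carbonate and vitamins were listed for the control ration only. A library of total RNA was made for each animal, and the question was whether green feed changes gene expression in the rumen.

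The ruminal epithelium is a stratified squamous lining that takes up the short-chain fatty acids made by the microbes of the rumen. Protons that enter the cell with these acids are extruded by sodium-proton exchangers (NHE proteins, SLC9 family). Bicarbonate moves across the membrane through anion exchangers and sodium-bicarbonate cotransporters (SLC4 and SLC26 families), and both routes together hold the intracellular pH and couple acid uptake to the transport of sodium and chloride.

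Levels are given as FPKM, fragments scaled by gene length and by all counted fragments of the animal, which sets the genes on 1 scale per length. Between 10531245 and 12947982 fragments were counted per animal, and the members were covered by 38 (SLC4A4) to 13824 (SLC26A3) reads in an animal, so that all 8 passed the filter of at least 40 reads in at least 1 animal that 12769 genes passed. The 17 epithelium markers summed to 4136 to 8016 FPKM per animal, led by KRT13 and the basal keratin KRT5 (means of 1572 and 1493 FPKM), while KRT4 (0.494 FPKM), KRT10 (1.76 FPKM) and DSG1 (3.48 FPKM) were low. The 11 smooth muscle markers summed to 6.80 to 44.2 FPKM, with MYH11 at a mean of 2.01 FPKM, and the 8 fibroblast markers to 19.8 to 282 FPKM. Control animal 6 and treated animal 6 stood apart from the other 10 on the first principal component of all genes tested, which held 26.7% of the variance. Their scores were 50.1 and 74.3, and no other animal was above 11.1. Results that rest on these animals are given with and without them, a choice made after seeing the data. Treated animal 1, the lowest on this component (-37.9), was kept in those comparisons.

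The members spanned a wide range of levels, from the SLC26A3 transcript at a mean of 157 FPKM to the SLC4A4 transcript at 1.97 FPKM over all 12 animals. The apical chloride-bicarbonate exchanger SLC26A3 and the sodium-proton exchanger SLC9A2 (NHE2, 90.0 FPKM) stood above 96.95% and 94.9% of the genes tested in mean level. Then came the sulfate-anion exchanger SLC26A2 (25.7 FPKM), the apical sodium-proton exchanger SLC9A3 (NHE3, 16.5 FPKM), the anion exchanger SLC4A2 (AE2, 7.29 FPKM), the sodium-proton exchanger SLC9A8 (NHE8, 6.50 FPKM) and the sodium-bicarbonate cotransporters SLC4A7 (NBCn1, 3.04 FPKM) and SLC4A4 (NBCe1). The highest and the lowest of these transcripts thus both belong to bicarbonate transporters, and SLC9A2 exceeded SLC9A3 in every animal.

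The order was tested between neighbours by an exact sign-flip permutation test of the log2 ratio within animals, two-sided and with Benjamini-Hochberg adjustment over 7 pairs. The pairs were set by the order of the means in the same 12 animals. The p-values are therefore not independent support for that order. SLC9A2 stood above SLC26A2 in 12 of 12 animals by 3.50-fold (exact adjusted p = 0.00171), and SLC9A8 above SLC4A7 in 12 of 12 animals by 2.14-fold (exact adjusted p = 0.00171). Both have an unadjusted p of 0.000488, the smallest that this permutation test can give. SLC26A2 exceeded SLC9A3 by 1.63-fold (exact adjusted p = 0.0137), SLC9A3 exceeded SLC4A2 by 2.27-fold (exact adjusted p = 0.00228), and SLC4A7 exceeded SLC4A4 by 2.55-fold (exact adjusted p = 0.0144). SLC26A3 and SLC9A2 could not be separated beyond the spread over animals, at a ratio of 1.48 with SLC26A3 higher in 10 of 12 animals (exact adjusted p = 0.0621). The same was true of SLC4A2 and SLC9A8, at a ratio of 1.07 with SLC4A2 higher in 9 of 12 animals (exact adjusted p = 0.465). The order was the same by medians and without control animal 6 and treated animal 6. It also depends on the gene lengths behind the FPKM, which are not stated. The lengths implied by the reads ran from 2736 bp (SLC9A3) to 11231 bp (SLC4A7). An error in a length would be the same in every animal, and the permutation test, which measures the spread over animals, does not cover it.

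**Figure D1:**
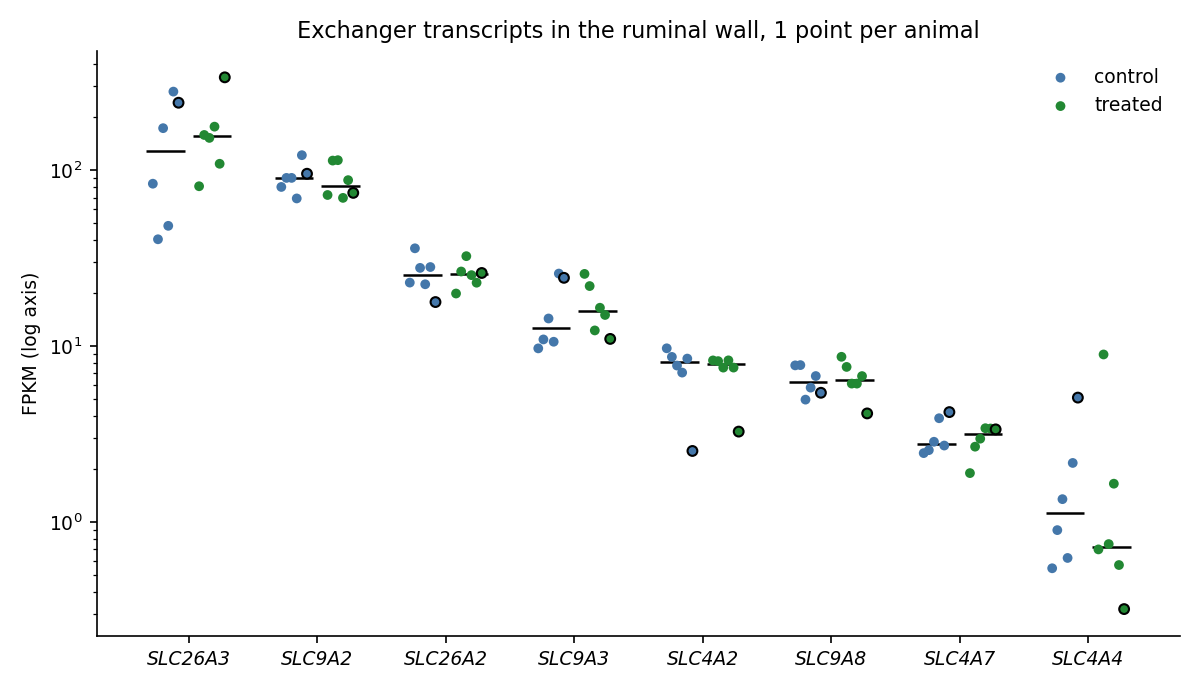
FPKM of the 8 members (log axis) in each of the 12 animals, ordered by mean level. Each point is 1 animal, horizontal lines are group medians, and points with a black rim are control animal 6 and treated animal 6. The control and treated points overlap for every gene, and SLC4A4 and SLC26A3 have the widest scatter.

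The members did not differ detectably between the diets. In limma none of the 8 passed 0.05 by nominal or by adjusted p-value, against 163 nominal calls (1.28%) and 0 adjusted calls (0%) among the 12769 genes tested. By voom, limma's method for reads, also 0 of the 8 members were nominal, against 146 of all genes, and 0 genes were past the adjusted threshold. The control and treated values of all 8 members overlapped, and 7 genes (0.0548%) of all those tested had groups without overlap. The median log2 fold change (treated minus control, on the log2(FPKM + 0.01) scale) was 0.01 over the 8 members and 0.00 over all genes tested, with 5 members above 0 and 3 below. The limma adjusted p-value was 0.9996 for each member, and the exact permutation p-values below are given with the 95% interval of the fold change, which sets how large a difference could have gone unseen.

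Among the sodium-proton exchangers, SLC9A2 (gene identifier 102409291) ranged from 69.2 to 121.9 FPKM in controls (median 90.5) and from 69.7 to 114 FPKM in treated animals (median 81.1). The groups covered nearly the same range, and only 2 of 6 treated animals were above the control median. The mean was 91.3 ± 17.7 FPKM (SD, n = 6) without and 88.7 ± 20.5 FPKM (SD, n = 6) with green feed. The log2 fold change was -0.05 ± 0.16 (SE), with an interval from -0.40 to 0.30 (exact permutation p = 0.768). On the linear scale that interval runs from 0.756-fold to 1.23-fold, so a log2 change of 1 in either direction lies outside it.

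SLC9A3 (102392404), the exchanger that brings sodium into absorptive epithelia, ranged from 9.72 to 25.9 FPKM in controls (median 12.6) and from 10.996 to 25.8 FPKM in treated animals (median 15.8). Control animals 5 and 6 (25.9 and 24.5 FPKM) stood above the other 4 controls, which reached at most 14.4 FPKM. The log2 fold change was 0.15 ± 0.28 (SE), with an interval from -0.46 to 0.76 (exact permutation p = 0.619). Without control animal 6 and treated animal 6 it was 0.41 ± 0.27 (SE; interval -0.19 to 1.01, limma adjusted p = 0.9995). SLC9A8 (102397786) lay between 4.97 and 7.80 FPKM in controls and between 4.15 and 8.70 FPKM in treated animals, with a log2 fold change of 0.02 ± 0.18 (SE; interval -0.38 to 0.42, exact permutation p = 0.926). Treated animal 6 was the lowest of its group, whereas among controls animal 3 was lower than animal 6.

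Of the SLC4 genes, SLC4A2 (102416209), which exchanges chloride for bicarbonate and is basolateral in many epithelia, showed the clearest break between animals. It was at 2.54 FPKM in control animal 6 and at 3.27 FPKM in treated animal 6, and between 7.08 and 9.72 FPKM in the other 10. The low values fell in 1 animal of each diet. The log2 fold change was 0.01 ± 0.32 (SE; interval -0.68 to 0.71, exact permutation p = 0.946). Without these 2 animals it was -0.06 ± 0.11 (SE; interval -0.29 to 0.17, limma adjusted p = 0.9995). The fold change of SLC4A2 turned on which of them was kept, being -0.27 without control animal 6 and 0.23 without treated animal 6, neither past the nominal threshold.

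SLC4A4 (102405795), the electrogenic cotransporter of sodium and bicarbonate, was the most variable member. It lay at 0.546, 0.62496, 0.900, 1.35, 2.17 and 5.10 FPKM in the controls and at 0.320, 0.570, 0.699, 0.749, 1.65 and 8.97 FPKM in the treated animals. In both groups 1 animal stood far above the others, control animal 6 and treated animal 2, and the lowest value of all was in treated animal 6. The log2 fold change was -0.28 ± 0.74 (SE; interval -1.86 to 1.304, exact permutation p = 0.734). It was -0.89 without treated animal 2 and 0.46 without control animal 6 and treated animal 6, so neither the direction nor the size of a diet difference in SLC4A4 could be read at this spread. SLC4A7 (102409840), an electroneutral cotransporter, lay between 2.47 and 4.22 FPKM in controls and between 1.90 and 3.42 FPKM in treated animals, with a log2 fold change of -0.07 ± 0.20 (SE; interval -0.50 to 0.35, exact permutation p = 0.714).

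SLC26A3 (102413416), also known as DRA, takes chloride into the cell in exchange for bicarbonate. Its control values were 40.5, 48.3, 83.9, 174, 242 and 280 FPKM, and its treated values 81.2, 109, 153, 159, 177 and 338 FPKM. Controls held both low and high animals, and the treated animals lay mostly between them, with treated animal 6 the highest of all. The mean was 145 ± 102 FPKM (SD, n = 6) without and 169 ± 89.7 FPKM (SD, n = 6) with green feed, and the log2 fold change was 0.45 ± 0.49 (SE; interval -0.59 to 1.501, exact permutation p = 0.435). With 1 animal left out it lay between 0.16 (without control animal 2) and 0.72. A 0.663-fold to 2.83-fold level of SLC26A3 in treated animals lies within that interval. SLC26A2 (102415159), which carries sulfate, had medians of 25.4 FPKM in controls (17.8 to 36.01) and 25.7 FPKM in treated animals (19.9 to 32.5), a log2 fold change of 0.00 ± 0.16 (SE; interval -0.35 to 0.35, exact permutation p = 1.0).

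**Figure D2:**
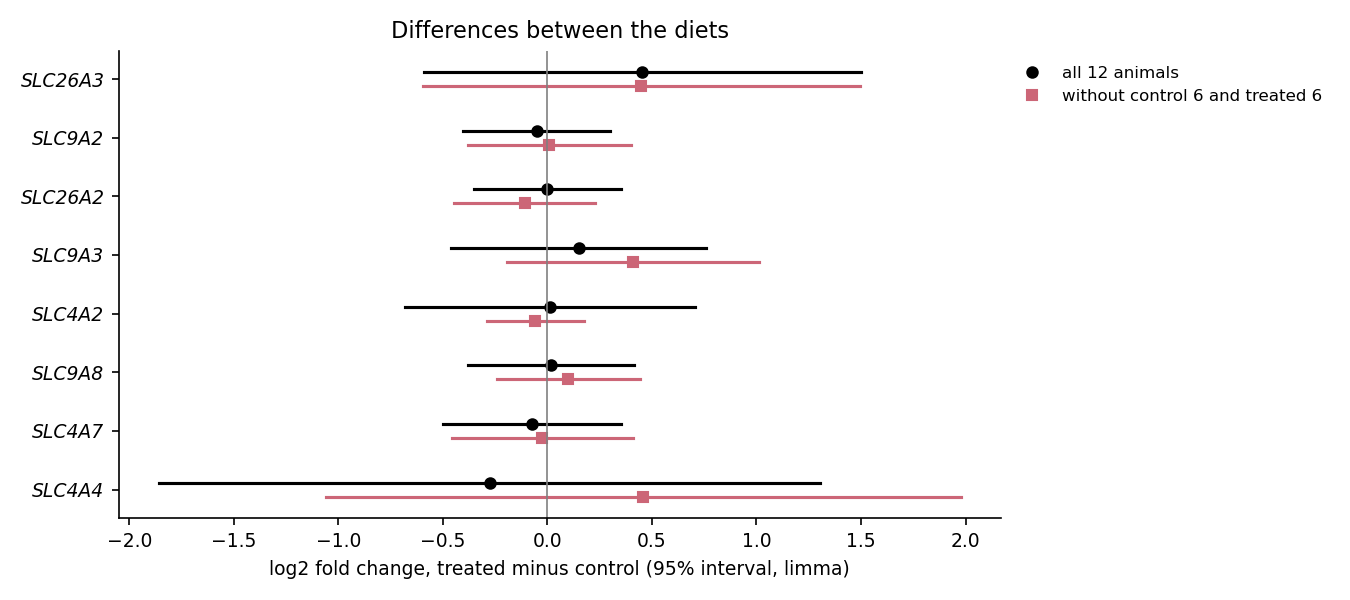
Log2 fold change between treated and control animals (x axis) of each member, with the 95% interval from limma, for all 12 animals (black circles) and without control animal 6 and treated animal 6 (red squares). Every interval includes 0, and those of SLC26A3 and SLC4A4 are the widest among the 8.

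The members differed in how much they varied between animals regardless of diet. The highest animal exceeded the lowest 28.0-fold for SLC4A4, 8.33-fold for SLC26A3 and 3.83-fold for SLC4A2, and the SD of their log2 level was above that of 97.8%, 94.5% and 80.9% of the genes tested. SLC9A2, SLC26A2 and SLC9A8 were steady, with 1.76-fold, 2.02-fold and 2.10-fold ranges and SDs above those of 36.2%, 35.5% and 40.8% of genes. The Poisson counting error, as a coefficient of variation, was smaller than this spread, at 2.54% for the fewest reads behind SLC26A3 in an animal (1553) and 16.2% for those behind SLC4A4 (38).

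Among the members of each class 1 gene held most of the summed FPKM on average. These sums hold only the genes chosen by name. They leave out other genes of the families, such as SLC4A9 (mean 3.43 FPKM) and SLC26A11 (3.87 FPKM). SLC9A2 made up 79.6% ± 4.78 of the 3 sodium-proton exchangers (SD, n = 12), between 67.7% in treated animal 1 and 86.1% in treated animal 3, and SLC9A3 made up 14.5% ± 4.42. SLC26A3 made up 81.8% ± 11.4 of its sum with SLC26A2, from 53.0% in control animal 2 to 93.1% in control animal 6. The make-up of the SLC4 class was the least stable: SLC4A2 held 59.8% ± 15.9 on average, but 21.4% in control animal 6, in which SLC4A4 and SLC4A7 were the higher genes. In treated animal 2 SLC4A4 alone held 45.1% of the class. The summed level of the 3 SLC4 members varied little in controls (11.6 to 13.4 FPKM), control animal 6 included at 11.9 FPKM. It lay between 6.95 (treated animal 6) and 19.9 FPKM (treated animal 2) in treated animals. The other SLC4 genes, not in this sum, ran from 1.78 to 5.36 FPKM in controls, so the narrow range holds for the members only.

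**Figure D3:**
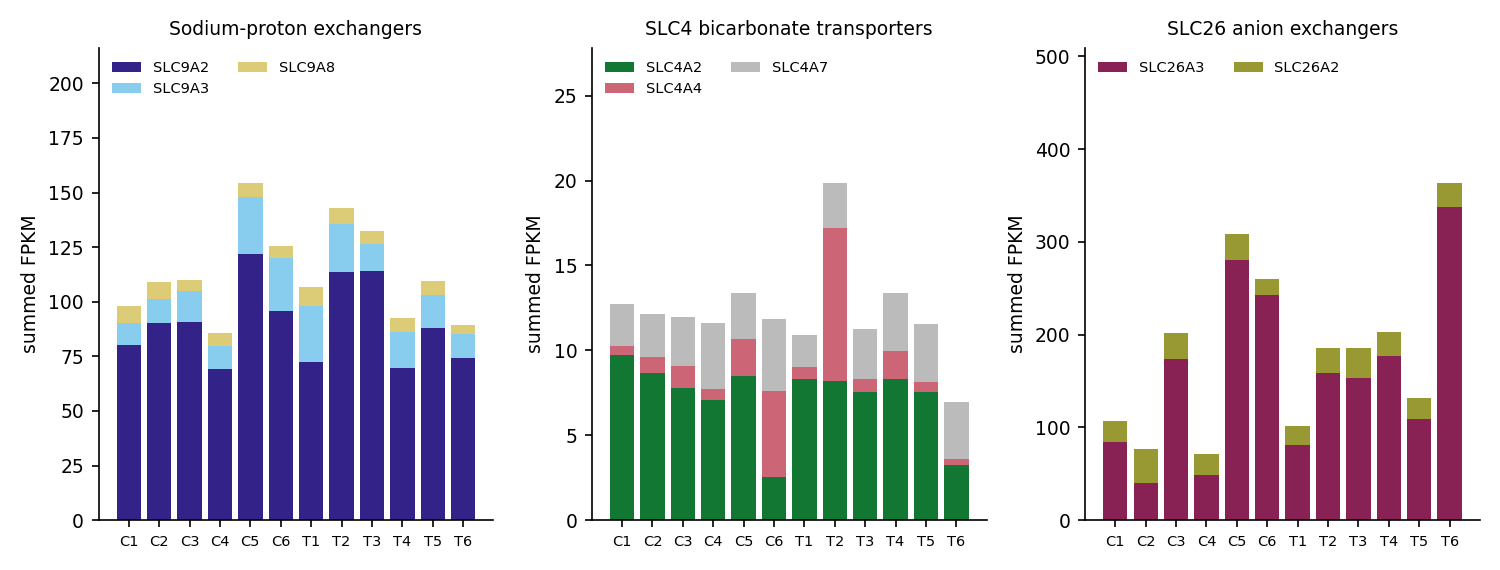
Summed FPKM (y axis, linear) of the members of each class in each animal, stacked by gene (C, control; T, treated; the number is the animal). SLC9A2 and SLC26A3 form the largest block of their class in all 12 animals, while the SLC4 stack is mostly SLC4A2 except in control animal 6 and treated animals 2 and 6.

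Other genes of the same families and known partners were read beside the members. Of 8 other SLC9 genes described here, 3 passed the read filter, and none had a nominal limma p-value below 0.05, as was true of the members against the 1.28% of all genes. They were low beside the members, with SLC9A7 at 0.907 FPKM, SLC9A9 at 0.704 FPKM and SLC9B1 at 0.441 FPKM. All 3 had log2 fold changes below 0, with a median of -0.32 and nominal limma p-values of at least 0.146. SLC9A4, the protein-coding gene on 1 side of SLC9A2 in the RefSeq annotation of another buffalo assembly, had 1 read at most in any animal. MFSD9, on the other side, was at a mean of 5.55 FPKM, so neither neighbour reached the level of SLC9A2.

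Of 7 other SLC4 genes 2 passed the filter, and SLC4A9 (AE4) at 3.43 FPKM had a mean near that of SLC4A7 and above that of SLC4A4. Its log2 fold change was 0.35 ± 0.26 (SE, limma adjusted p = 0.9996). Of 8 other SLC26 genes only SLC26A11 (3.87 FPKM), an anion transporter, passed, and SLC26A4, pendrin, had 7 reads at most. Of 16 regulators and partners found, 11 passed the filter and none a nominal p-value of 0.05 in limma, with 7 log2 fold changes above 0 and 4 below. Among the most abundant were AHCYL2 (548 FPKM), a paralog of the regulator of bicarbonate cotransporters AHCYL1, the membrane linker ezrin EZR (88.4 FPKM), the NHE cofactor CHP1 (54.3 FPKM) and the kinase OXSR1 (30.5 FPKM). SLC9A3R1 (NHERF1), which anchors SLC9A3 at the membrane, was at 29.8 FPKM with a log2 fold change of -0.07 ± 0.29 (SE).

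**Figure D4:**
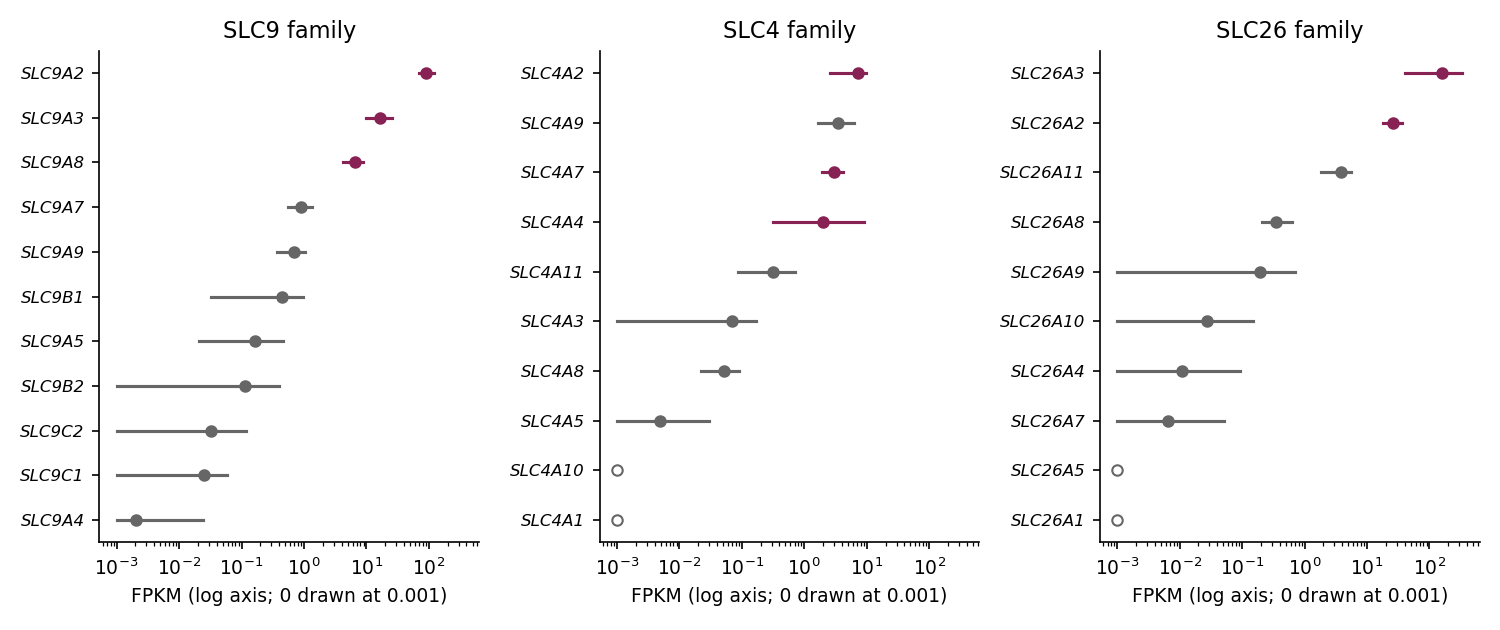
Mean (points) and lowest to highest FPKM over the 12 animals (lines) of the genes of the SLC9, SLC4 and SLC26 families described here, on a log axis with 0 drawn at 0.001. Members are in red and other genes in grey, and open points are genes at 0 in all animals. The most abundant gene in each panel is a member.

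Marker levels differed between the wall samples, and in bulk tissue fewer cells of a type cannot be told apart from less RNA per cell. The members were therefore set against the mean centred log2 level of 17 epithelium markers and of 16 smooth muscle and fibroblast markers across the 12 animals, which gave 16 relations with a permutation test each and Benjamini-Hochberg adjustment over the 16. The marker scores themselves moved in opposite directions (r = -0.695). SLC9A8 followed the epithelium score with Pearson's r = 0.779 (permutation p = 0.00297, adjusted p = 0.0244) and Spearman's rho = 0.741 (permutation p = 0.00786, adjusted p = 0.0988), past 0.05 after adjustment for r but not for rho. The Pearson coefficient was 0.596 within controls, 0.970 within treated animals and 0.725 without the 2 animals farthest from the median of the score, which were control animal 6 and treated animal 6, where the permutation adjusted p was 0.283.

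SLC4A2 also followed the epithelium score over all animals (r = 0.853, permutation p = 0.00305, adjusted p = 0.0244; rho = 0.510, permutation p = 0.0950, adjusted p = 0.253), but r was 0.133 without control animal 6 and treated animal 6, so that this relation rests on them. Within controls and within treated animals r was 0.859 and 0.873, each with 1 of these animals included. SLC26A3 and SLC4A7 ran against the score, at r = -0.690 (rho = -0.678, permutation adjusted p = 0.0659 and 0.0988) and r = -0.647 (rho = -0.462, permutation adjusted p = 0.0714 and 0.306), neither past 0.05 after adjustment. Without control animal 6 and treated animal 6 these coefficients were -0.562 and -0.444. The r of SLC26A3 was -0.719 within controls and -0.884 within treated animals, and -0.760 in deviations from the group means (permutation adjusted p = 0.0357). SLC9A2 (r = -0.124), SLC9A3 (r = 0.02), SLC4A4 (r = -0.118) and SLC26A2 (r = 0.269) were not related to it beyond the spread, and no member was related to the smooth muscle and fibroblast score with an adjusted p-value below 0.05. The nearest to it was SLC9A8 (r = -0.652, rho = -0.685, permutation adjusted p = 0.0714 and 0.0988), which passed 0.05 with median-ratio scaling of the animals (r = -0.719, permutation adjusted p = 0.0418).

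A pair of the epithelium markers, KRT4 and KRT10, had few reads in some animals. With the 15 markers that had at least 40 reads in every animal, a choice made after seeing the data, SLC9A8 gave r = 0.896 (permutation p = 6e-05, adjusted p = 0.00048 over 8 relations; rho = 0.895, permutation p = 0.00016, adjusted p = 0.00128), and r = 0.835 without control animal 6 and treated animal 6 (permutation adjusted p = 0.0213). Without the 2 animals farthest on that score, here treated animals 1 and 6, r was 0.759 (permutation adjusted p = 0.0537). SLC4A2 gave r = 0.799 (permutation adjusted p = 0.0182; rho = 0.783, permutation adjusted p = 0.0149). It gave 0.807 without treated animals 1 and 6 (permutation adjusted p = 0.0537), where control animal 6 was still included. Without control animal 6 and treated animal 6 it gave 0.321 (permutation adjusted p = 0.717). SLC4A7 gave r = -0.710 (permutation adjusted p = 0.0260; rho = -0.664, permutation adjusted p = 0.0592), a call that did not hold in deviations from the group means (permutation adjusted p = 0.0586), without the 2 animals farthest on the score (0.103) or without control animal 6 and treated animal 6 (r = -0.663, 0.164). SLC26A3 gave r = -0.562 (permutation adjusted p = 0.112; rho = -0.469, permutation adjusted p = 0.256), with -0.234 without control animal 6 and treated animal 6 and a permutation adjusted p of 0.0617 in deviations from the group means. The log2 fold change of SLC9A8 with this score as a covariate was -0.03 ± 0.11 (SE), so the diet comparison of SLC9A8 remained without a call.

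**Figure D5:**
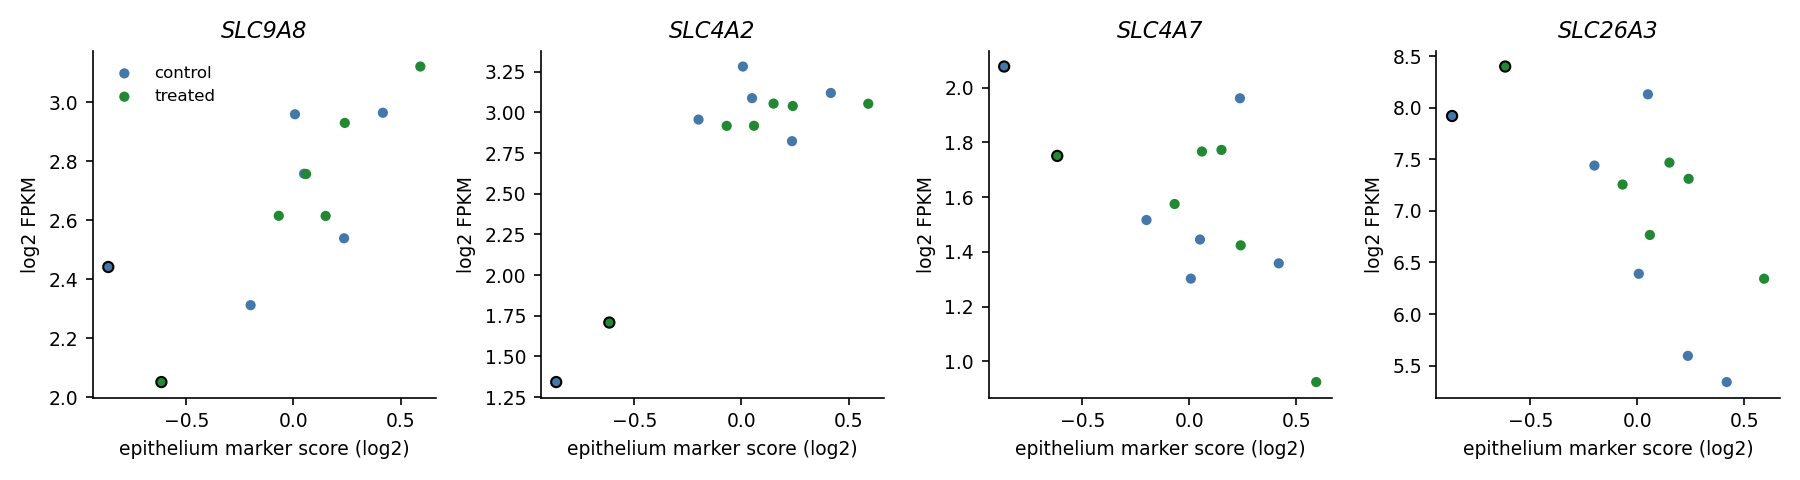
Log2 FPKM (y axis) of SLC9A8, SLC4A2, SLC4A7 and SLC26A3 against the epithelium marker score (x axis, mean centred log2 level of 17 markers), 1 point per animal, with a black rim for control animal 6 and treated animal 6. SLC9A8 has higher values at higher scores (r = 0.779), and for SLC4A2 the other 10 animals show little slope (r = 0.133).

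Markers of smooth muscle and connective tissue lay on 1 side of 0 in the diet comparison. All 8 smooth muscle markers tested and all 8 fibroblast markers had log2 fold changes below 0 (medians -0.71 and -0.74). The 16 held 1 nominal call, the intermediate filament DES (-1.04, limma adjusted p = 0.9996). Over all genes tested, 6233 of 12769 were below 0 and 163 (1.28%) were nominal. Markers of 1 tissue can move together over animals, so these signs are not independent results. The smooth muscle and fibroblast score was lowest in treated animals 1 and 2 (-1.78 and -1.12). Their summed levels were 18.7 to 44.2 FPKM (smooth muscle) and 46.4 to 282 FPKM (fibroblast) in controls, and 6.80 to 33.2 FPKM and 19.8 to 184 FPKM in treated animals, and the smooth muscle markers CNN1 and ACTG2 were at 0 in at least 1 animal. With the stroma score as a covariate the log2 fold change of SLC26A3 was 0.91 ± 0.47 (SE). It was 0.66 ± 0.33 (SE) with the epithelium score and 0.56 ± 0.40 (SE) with the score of well-covered epithelium markers. The 95% interval of each included 0. For SLC26A3 with the epithelium score as a covariate its nominal limma p was 0.0672, the lowest of any member under any alternative. The part of tissue make-up in these values was not tested further.

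Between the members themselves, 28 pairs were correlated across the 12 animals, and none had a permutation p-value below 0.05 after Benjamini-Hochberg adjustment over the 28. The largest coefficients were -0.687 for SLC9A8 and SLC4A7, 0.676 for SLC9A8 and SLC4A2, and 0.676 for SLC9A3 and SLC4A4. The last pair had r = 0.923 within controls and 0.556 within treated animals (rho = 0.643 over all 12; permutation adjusted p = 0.159 for r and 0.194 for rho). It had r = 0.886 without the 2 animals farthest from the median of SLC9A3 (permutation adjusted p = 0.0428) and 0.561 without control animal 6 and treated animal 6.

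The genes whose log2 level over the 12 animals was most like that of each member were listed as a description, by Pearson's r over all genes tested. For SLC9A8 these were ZNF629 (r = 0.978), VGLL4 (0.973) and PRKD2 (0.972), which kept coefficients of 0.953 to 0.973 without control animal 6 and treated animal 6. For SLC4A2 they were HGS (0.987), SCRIB (0.983) and GPAT4 (0.982), and their coefficients were 0.823, 0.706 and 0.521 without these animals. SLC26A3 was most like SUSD1 (0.941), SLC4A7 like the ribosomal protein gene RPS15 (0.915), SLC9A2 like LOC102389850 (0.890), SLC26A2 like LOC102392359 (0.889), SLC9A3 like NKPD1 (0.844) and SLC4A4 like DPH6 (0.839). With 12 animals and 12769 genes, coefficients of this size are the top of a long list, and no test was made of them.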

How the data were processed

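Ruminal wall RNA of 12 buffaloes (6 control, 6 treated) was sequenced by the authors as stranded paired ends. Per the labels and the methods, reads were trimmed with Trimmomatic 0.39, aligned with STAR 2.5.2b to UOA_WB_1 and counted per gene and strand with featureCounts 2.0.0. The authors deposited FPKM values, unfiltered. Of 16 columns, 12 were matched to the animals by their labels, and 4 columns were not used. The steps between the FPKM of a gene are whole multiples of 1 read, which gave the reads behind each value.

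Genes with at least 40 reads in at least 1 animal were tested on log2(FPKM + 0.01) with limma 3.58.1 (lmFit, eBayes with trend, R 4.3.3), with Benjamini-Hochberg adjustment over all 12769. No count model was used for the reported values, since the deposited unit is FPKM, and voom on the reads was an alternative. Single genes were tested by exact permutation over 924 assignments (smallest p-value 0.00216), and correlations by 100000 permutations (scipy 1.17.1). The animals are separate, and the labels give no batch.

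The members and lists were chosen with earlier results of these data known. The rule for naming genes took the members, of each other list the genes with a nominal p-value below 0.05 and the 4 with the highest mean FPKM, and the 3 genes most alike to each member. Not every gene that met the rule is named here. AHCYL1 is named only as the paralog of AHCYL2. SLC9A4, MFSD9, SLC26A4, SLC9A3R1, KRT4, KRT10, DSG1, MYH11, CNN1 and ACTG2 were named after their values were seen. The markers are of epithelium, smooth muscle, fibroblast, endothelium, immune cells and enteric glia. Gene names came from the table. Some genes of the SLC9 family are not reported here. Alternatives were another pseudocount, filter, scaling, variance prior or covariate, voom, the replicate number as a block, and animals left out. The procedure was tested on simulated data.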

Additional observations from a re-analysis of the deposited data

Results flagged for a closer look

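The values of each member in each group were searched for an animal set apart, by the gap between the highest or lowest animal and the next, divided by the range of the 6 animals and set against Dixon's critical value for 6 animals. Of 16 groups of values, 5 were past it. The search was made on FPKM and not on the log2 scale, whereas the critical value assumes normally distributed values. The groups also hold the same animals for each gene, so this count was not set against a rate by chance. SLC4A2 was lowest in control animal 6 (2.54 FPKM, gap over range 0.631) and in treated animal 6 (3.27 FPKM, 0.851). SLC4A4 was highest in control animal 6 (5.10 FPKM, 0.644) among controls and in treated animal 2 (8.97 FPKM, 0.846) among treated animals. SLC26A3 was highest in treated animal 6 (338 FPKM, 0.626). Of these 5 values, 4 belong to control animal 6 and treated animal 6, the animals set apart over all genes. Control animal 6 had the fewest counted fragments (10531245), while treated animal 6 had more (12729720) than all animals except control animal 3. Treated animal 6 had the fewest genes above 0 (17766), against 18227 in control animal 6. What they shared was the lowest summed epithelium markers (4136 and 4180 FPKM). The part of these features in the values was not tested.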

How the results depend on the processing

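Across 24 alternatives to the comparison of diets, 12 of which left out 1 animal each, none of the 8 members passed a nominal p-value of 0.05 in limma, and the count of all genes past the adjusted threshold was 0 in every one, with a lowest adjusted p-value of 0.156. The count of all genes with a nominal p-value below 0.05 was 163 and moved to 562 with no filter (of 22972 genes), 301 with the filter of 0.1 FPKM in 6 animals (of 16450), 370 and 252 with the stroma and the epithelium score as covariate, 258 with the score of well-covered markers, and 318 without control animal 6 and treated animal 6. With 1 animal left out it lay between 144 and 332, the latter without treated animal 6. The cause of these moves was not tested.

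With the replicate number as a block the count was 326. Same-numbered animals are different animals, and their deviations correlated between -0.0146 and 0.409 (mean 0.209, against -0.0388 between other numbers). Of 12 animals, 7 correlated best with their own number, a hint of pairing from the data and not from the design. No rate by chance was set beside this count. Control animal 6 and treated animal 6, which stood apart over all genes, share a number, and their part in the mean was not worked out. These numbers follow the sample descriptions and differ from the numbers in the titles of several animals. Animals with the same title number were not checked as pairs. The paper states random assignment to the groups, with regard to parity and milk production. The numbers were not taken as pairs, since the labels give them no shared origin and only 4 of 6 pairs were above 0.1. The replicate block gave no member a call.

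Log2 fold changes of the members, none called, had the opposite sign in 42 of 192 alternative values. SLC9A2 gave 0.0098 without control animal 6 and treated animal 6. SLC9A8 gave -0.18 with the stroma score, -0.051 with the epithelium score and -0.031 with the well-covered score. SLC4A2 gave -0.20, -0.14 and -0.075 with the same scores, -0.0071 by voom and -0.057 without the 2 animals. SLC4A4 gave 0.46 without the 2 animals, and SLC4A7 0.11 with the stroma score. SLC26A2 gave -0.00030 at a pseudocount of 1, -0.0041 with median-ratio scaling, -0.016, -0.022 and -0.0075 with the scores, and -0.11 without the 2 animals. With 1 animal left out the ranges were -0.13 to 0.035 (SLC9A2), -0.069 to 0.145 (SLC9A8), -0.27 to 0.23 (SLC4A2), -0.89 to 0.12 (SLC4A4), -0.14 to 0.047 (SLC4A7), -0.10 to 0.10 (SLC26A2), 0.018 to 0.31 (SLC9A3) and 0.16 to 0.72 (SLC26A3).

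Of the 16 relations to the scores, 2 had a permutation adjusted p-value below 0.05, and 0 did without the 2 animals farthest on the score or without control animal 6 and treated animal 6. In both cases r was 0.725 for SLC9A8 and 0.133 for SLC4A2. In deviations from the group means 3 did, SLC26A3 being added, and with median-ratio scaling 3 did, the addition being SLC9A8 with the smooth muscle and fibroblast score (r = -0.719, permutation adjusted p = 0.0418). Of the 28 pairs of members, 0 did over all animals and 1 did, SLC9A3 with SLC4A4, without the 2 animals farthest on its x axis. The order of the members was the same at 8 of 8 ranks by median and without the 2 animals. The number of animals limits the precision, with a median standard error of 0.21 for a log2 fold change.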

Other observations

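Other cell types of the wall were read from the same marker lists. Endothelium markers (6 tested, 5 below 0, median log2 fold change -0.17), immune markers (4 tested, 3 below 0, median -0.08) and the 1 enteric glia and neuron marker tested (-0.49) had no nominal limma p-value below 0.05. Summed levels were 9.15 to 30.9 FPKM (control) and 5.96 to 32.2 FPKM (treated) for endothelium, 30.8 to 50.8 and 25.4 to 51.8 FPKM for immune cells, and 5.14 to 15.7 and 2.15 to 8.35 FPKM for glia and neurons, with the 15.7 FPKM in control animal 6. The 17 epithelium markers had 10 log2 fold changes above 0 and 7 below, with a median of 0.04.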
